A study of Mus musculus with 6 samples.

Results

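When an intron is removed, its 5′ end, the donor, and its 3′ end, the acceptor, are cut in consecutive steps. Reads of total RNA that cross a splice junction without a gap come from RNA in which that junction has not been joined, and reads with a gap come from spliced RNA. An intron that is simply retained gives ungapped, or unsplit, reads at both of its ends. The introns described here gave them mainly at the 3′ end. In the controls the sum of unsplit reads at the 3′ junction had to be 30 or more and at least 3 times the 5′ sum plus 1. This rule kept 3861 of the 68322 introns listed in all 4 total RNA libraries, in 2565 of 9954 genes. The control unsplit reads chose these introns, so their control values are a description. Split reads, the knockdown libraries and the long reads did not enter that choice beyond the listing in every library.

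RNA came from E14 mouse embryonic stem cells (129/Ola background) grown with serum and leukaemia inhibitory factor. Both groups were transfected by lipofection with siRNA, targeting Son in the knockdown group and a control siRNA in the other, and RNA was taken 24 hours later. Son codes for a large serine- and arginine-rich protein of nuclear speckles that takes part in splicing. Total RNA depleted of rRNA was sequenced in 2 samples of each group, and polyadenylated RNA as Nanopore cDNA from 1 control and 1 knockdown sample. The labels do not say that the replicates were separate cultures, so p-values measure the spread between these samples, which may be technical. The total RNA libraries held 10556187 to 16012286 split reads at 5′ junctions. Son itself had 4376 and 3251 split reads in the controls, then 1380 and 1061 after knockdown, a log2 change of -1.61 ± 0.0869 (SE, n = 2 per group, edgeR adjusted p = 3.72e-10). Of the 9 embryonic stem cell markers checked, 8 were listed, with a summed level of 4390 to 4553 CPM (split reads scaled to library size) in every library, and Sox2, which has no intron in its usual transcript, was not listed. Of 4 fibroblast markers only Thy1 was listed, at a level of 1.16 to 2.19 CPM, and 4 of 7 primitive endoderm markers gave 643 to 712 CPM.

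Other sets of introns serve for comparison. The same rule turned round, with unsplit reads mainly at the 5′ junction, gave 3743 introns, called 5′ introns below. A further 14361 introns had 30 or more unsplit control reads at a junction and met neither rule, and are called other covered introns. All 68322 introns, members included, form the last set. At the edge of the rule, 1700126G02Rik intron 3, E2f4 intron 9 and Akt1 intron 5 had a 3′ sum of 3.0 times the 5′ sum plus 1. Just outside it, Srrm1 intron 3, Uhrf1 intron 11 and Eif4ebp1 intron 2 stood at 2.98 times. The lowest 3′ sum, 30, occurred in Sgsm2 intron 21, Abr intron 8 and Meg3 intron 2. The threshold cuts through a continuous range: 1017 members had a ratio under 4 and 1776 a 3′ sum under 50, with a median 3′ sum of 52.

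The sequences across some of these 3′ junctions are shown first, because every member is defined by reads that run through such a stretch. An acceptor ends in AG, preceded by a tract rich in C and T that U2AF2 binds. No genome sequence of the files' build was used, so the window could be read only where an exon of the opposite strand (GENCODE M21 transcripts) or a RefSeq promoter window covers it, both of GRCm38. This held for 120 of 3861 members, and all 120 had AG at the intron end. Each line gives 25 intron bases and 5 exon bases, 5′ to 3′ on the strand of the intron, with the terminal AG of the intron in capitals.
Tti2 intron 6, chr8:31159857-31159886, plus strand: atgcccgtttgctctcatgtttcAGggtct
Mid1 intron 7, chrX:169985872-169985901, plus strand: gtccaaataatctgccattctgcAGacgtg
Rab10os intron 6, chr12:3249714-3249743, plus strand: atggacagagtgttttattttgcAGcaaga
Map3k15 intron 28, chrX:160122902-160122931, plus strand: tcttctgcaaattattgttttgcAGgggtg
Cox20 intron 1, chr1:178321720-178321749, plus strand: taaattctttttcattttatcctAGccctt
Sh2b1 intron 2, chr7:126473090-126473119, minus strand: gtgtatgtgcctcttctttctacAGctgtt
Smarcad1 intron 1, chr6:65043181-65043210, plus strand: cctgttttttgttccctccctgcAGctagt
Zfp740 intron 1, chr15:102204546-102204575, plus strand: gcctcatctccctttctggtttcAGgtttc
Ncor1 intron 1, chr11:62438511-62438540, minus strand: aattctctttttctgttctatgtAGgttgc
Dido1 intron 1, chr2:180692044-180692073, minus strand: gtactatgtttttccttccctatAGgagct
The first 5 lie under an exon of a gene on the other strand, and the last 5 in the promoter window of a RefSeq transcript. Over the 120 members the median share of C and T in the 23 bases before AG was 73.9%. It was 73.9% over the 370 other covered introns with a window and over all 1217, and 69.6% over 90 5′ introns. The median of the acceptors that could be read was thus the same as that of all readable acceptors.

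For introns with no such window only the spliced junction could be read, from GENCODE M21 transcripts. The lines below hold 15 bases of the upstream exon in lower case and 15 bases of the downstream exon in capitals, for introns that the next paragraphs describe.
Zfp42 intron 3: gtgctggaatcaaagCTCCTGCACACAGAA
Hnrnpa1 intron 10: attacatacagccagGAAACAAAGCTTAGC
Jade1 intron 3: cgaaagccttctgagTTTTCCTCTGGCCAG
Gtse1 intron 7: cccagttttctgttgGCGAGTCACCTGGAG
Rpl19 intron 1: ggccgcagccatgagTATGCTCAGGCTACA
Srrm2 intron 9: aaagataagaaagagAAATCTGCAGTTCGA
Each capital stretch is the exon into which the unsplit reads run. The first base of the downstream exon was G in 44.4% of 3838 members found in the annotation, in 53.1% of 5′ introns, in 49.7% of other covered introns and in 49.1% of all. The upstream exon ended in AG in 58.8%, 55.7%, 57.2% and 57.5% of these sets.

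The 3′ excess that chose the introns in the controls was present again in the knockdown libraries, which the rule did not use. Of the 3861 members, 3805 had more unsplit reads at the 3′ than at the 5′ junction in knockdown library 1 and 3796 in knockdown library 2, and 3745 (97.0%) in both. Summed over the knockdown libraries, 3845 members (99.6%) had more at the 3′ junction, against 48.4% of all introns, 46.3% of other covered introns and 0.561% of 5′ introns. The full ratio of the rule was met there by 2995 members (77.6%), against a background of 16.2% of all introns. By library the share of members meeting it was 72.5% and 74.5%, and 2339 members (60.6%) met it in both, against 8.29% of all introns. Members were thus on the same side in the knockdown in nearly every case, and met the full ratio less often.

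The median member had 87.5% and 87.2% of its unsplit reads at the 3′ junction in the control libraries. In the knockdown libraries the median share was 85.0% and 87.0%. The 5th percentile was 72.7% and 70.6% in the controls, then 60.0% and 61.7% in the knockdown, so the spread was wider in the libraries that did not choose the introns. In 5′ introns the medians ran from 14.3% to 17.9%, and in other covered introns from 48.5% to 48.8%. The median ratio of the 3′ sum plus 1 to the 5′ sum plus 1 was 5.73 in the controls and 5.33 in the knockdown; because the control values chose the introns, this fall is no measure of an effect.

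**Figure D1:**
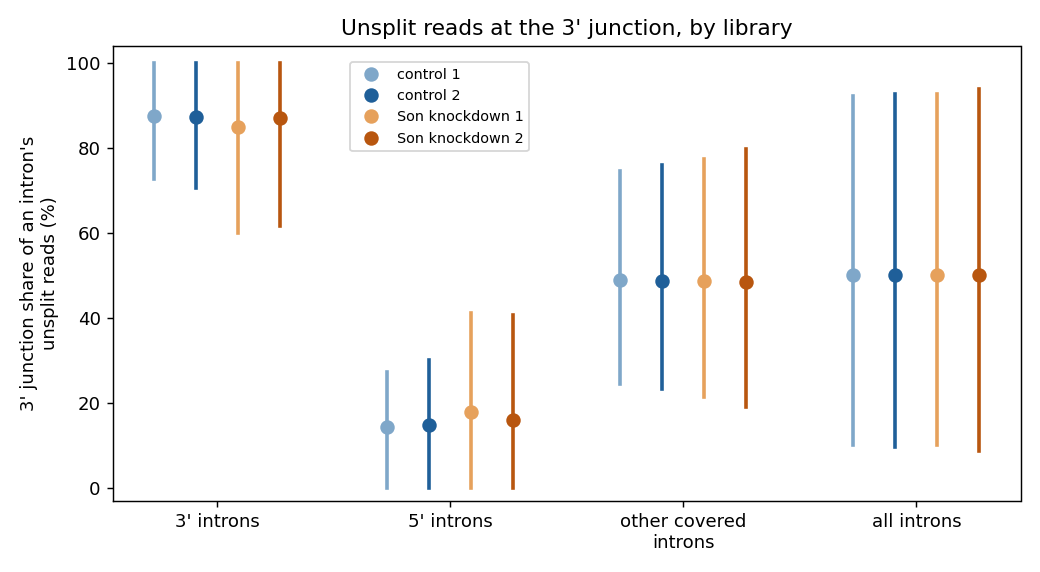
Share of an intron's unsplit reads that lie at its 3′ junction, in percent, for introns with 10 or more unsplit reads in the library. Points are medians and lines run from the 5th to the 95th percentile over introns; the knockdown medians of the 3′ introns, 85.0% and 87.0%, lie above 48.8%, the highest median of the other covered introns.

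Tested within the knockdown libraries alone (edgeR, 3′ against 5′ unsplit reads, adjusted p under 0.05), 3193 of 3861 members had more reads at the 3′ junction and none had fewer. The background was 13.2% of 56349 introns called in this direction and 12.2% called in the other. Among 5′ introns none was called for the 3′ side and 2972 for the 5′ side. The count rests on how the prior variance was estimated. With edgeR's non-robust estimate 406 members were called, among 412 introns called for the 3′ side and 288 for the 5′ side. DESeq2 called 2309 members, among 3702 introns called for the 3′ side and 3325 for the 5′ side. No member was called for the 5′ side under any of these. Without introns that have an opposite-strand exon at a junction, 3063 of 3713 members were called for the 3′ side, among 7179 introns. The counts per library above need no such model.

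The 16 members whose knockdown sum was not higher at the 3′ junction had a 3′ control sum of 53 or less. Idi1 intron 3 had 23 and 30 unsplit 3′ reads in the controls, then 12 and 23 in the knockdown, with 11 and 3, and then 19 and 18, at the 5′ junction. Srcap intron 21 had 39 and 10, then 18 and 26, 3′ reads, and 8 and 6, then 27 and 22, 5′ reads. Low control 5′ reads were part of the rule, so no change between the groups is read from these introns. Idi1 codes for an isomerase of the sterol pathway and Srcap for a chromatin remodeller.

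The members with the most unsplit reads fell into a few kinds. Zfp42 intron 3 (chr8:43753743-43755911 in the files' coordinates, 5′ UTR) had the highest 3′ sum, 2264. Zfp42, also known as Rex1, is a zinc finger protein used as a marker of undifferentiated cells. Its intron gave 1302 and 962 unsplit 3′ reads in the controls, then 1241 and 1042 in the knockdown, against 120, 79, 128 and 98 at the 5′ junction. Every library had far more at the 3′ end. Split reads were unequal as well: the 3′ junction had 3996 in the controls and the 5′ junction 66, so most spliced Zfp42 RNA joined this acceptor to a different donor.

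Rpl26 intron 1, in the 5′ UTR of a protein of the large ribosomal subunit, had 973, 687, 821 and 572 unsplit 3′ reads in control libraries 1 and 2 and knockdown libraries 1 and 2. At its 5′ junction these were 42, 32, 25 and 24. Here too the acceptor was the shared end, with 24778 split reads in the controls against 64 at the listed donor. Alg13 intron 1, in a gene of protein glycosylation, gave 894, 712, 903 and 574 at the 3′ end and 202, 166, 226 and 241 at the 5′ end, and again had more split reads at the acceptor, 2298 against 300.

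Hnrnpa1 intron 10 stood for the commoner kind, in which spliced reads were equal at both ends. This gene codes for an RNA-binding protein that itself regulates splicing. The intron lies in the 3′ UTR and had 537, 325, 403 and 311 unsplit 3′ reads against 5, 7, 10 and 5 at the 5′ end. Its split reads in the controls were 786 at the donor and 764 at the acceptor. Eif3l intron 2, of a translation initiation factor subunit, had 353, 257, 326 and 261 at the 3′ and 27, 31, 15 and 10 at the 5′ end. Hsp90ab1 intron 6, of a chaperone, had 352, 183, 284 and 225 against 46, 43, 43 and 45, beside 41285 split reads in the controls. These introns were spliced in most reads and still showed the excess in each library.

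In 112 members no 5′ unsplit read was seen in any library. Rpl19 intron 1, of another protein of the large ribosomal subunit, had 197, 136, 135 and 125 unsplit 3′ reads and 0 at the 5′ end throughout. Mthfd1 intron 10, of folate metabolism, had 80, 76, 95 and 105 against 0. Rest intron 1, of a repressor of neuronal genes, had 93, 79, 106 and 67 against 0. Gtse1 intron 7, of a microtubule-associated protein, had 206, 193, 207 and 155, with a single 5′ read in knockdown library 1. Sirt1 intron 1, of a deacetylase, had 65, 70, 107 and 69 against 2, 2, 0 and 0. These introns were named for their large knockdown ratios, so 5′ counts at or near 0 in both groups were part of the choice. The control counts chose these introns, so their 3′ counts are not compared between the groups.

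**Figure D2:**
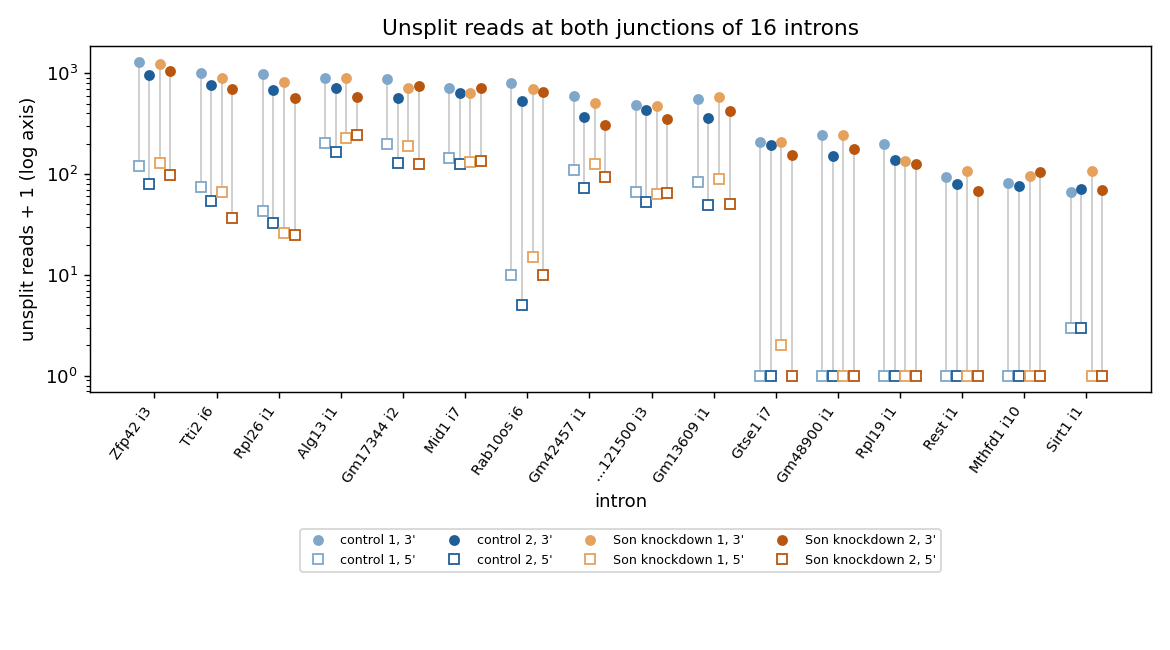
Unsplit reads plus 1 on a log axis at the 3′ junction (filled circles) and the 5′ junction (open squares) in each of the 4 libraries, for the 10 introns with the highest control 3′ sums and the 6 with the largest knockdown ratio. Every library has the 3′ count above the 5′ count in all 16, and 4 of the last 6 have no 5′ read in any library.

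The rule would also keep an intron whose acceptor overlaps other transcribed sequence, so the overlap with annotated exons was counted. No member had an exon of the same strand over its 3′ junction, but such introns were rare in general, with 7 of 67885 (0.0103%) among all introns. An exon of the opposite strand covered the 3′ junction in 115 of 3838 members (3.0%), in 2.26% of 5′ introns, 2.44% of other covered introns and 1.58% of all. Of the 115, 61 had such an exon over the 5′ junction as well, and 54 over the 3′ junction only. The 5′ junction was covered in 94 members (2.45%), against 1.46% of all introns. Whether counting used the strand is not stated in the labels, so reads of the partner gene cannot be told apart from reads of the host at these junctions. The share with such an exon over the 3′ junction rose with the number of reads. It was 1.81% of members with a 3′ sum under 100, 5.07% of those from 100 to below 300, and 32.5% of the 83 at 300 or more. It rose in the comparison sets as well, through 1.81% and 3.52% to 14.0% in 5′ introns and through 2.02% and 4.67% to 16.7% in other covered introns. Over the 5′ junction the share in members rose through 1.65% and 4.08% to 20.5%. Of the 10 members with the highest sums 6 had an opposite-strand exon over the 3′ junction, and of the 30 highest 20 did.

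Tti2 intron 6 was the largest of them, with 1009, 758, 886 and 689 unsplit 3′ reads against 74, 53, 65 and 36 at the 5′ end and only 1 to 17 split reads at its donor per library. Tti2 belongs to a chaperone complex for large kinases, and the opposite gene, Mak16, is a factor of ribosome assembly. In the control long-read library Tti2 had 40 reads and Mak16 had 409. Rab10os intron 6 had 803, 525, 704 and 657 against 9, 4, 14 and 9, under an exon of Rab10, a small GTPase. Gm13609 intron 1 had 554, 357, 581 and 423 against 82, 48, 88 and 50, under Nup214, a nuclear pore protein, and had at most 1 split read per library. Over the 115 introns the opposite gene had more control long reads than the host in 50. Members with fewer than 10 split control reads at both junctions numbered 38, and 25 of these had an opposite-strand exon. The part of the opposite genes in the unsplit reads was not tested.

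Split reads showed which ends of an intron were joined to another site. A member was put in the class of donors joined elsewhere when its control split reads at the 5′ junction were at least 3 times those at the 3′ junction, and of acceptors joined elsewhere in the reverse case. These classes were chosen after the tables had been seen. Of the 3861 members 3416 (88.5%) were balanced, 295 (7.64%) had the donor and 112 (2.9%) the acceptor joined elsewhere. In 5′ introns the order was the other way round, with 1.23% and 8.39%, and in other covered introns the shares were 4.48% and 5.81%. An end joined elsewhere was thus more often the end with few unsplit reads, in both kinds of intron.

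Jade1 intron 3 was the donor case with the most unsplit reads. Jade1 is a scaffold of a histone acetyltransferase. The listed intron had 2003 split control reads at its donor and 0 at its acceptor, and 414, 398, 389 and 333 unsplit 3′ reads against 36, 27, 37 and 27. Tdh intron 1, of threonine dehydrogenase, an enzyme abundant in mouse embryonic stem cells, had 7913 split control reads at the donor and 1 at the acceptor, with 254, 174, 230 and 159 unsplit 3′ reads. Slc2a1 intron 1, of the glucose transporter GLUT1, had 2869 against 0 and 210, 183, 202 and 167. In these introns the acceptor of the listed transcript was hardly used for splicing in either group.

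First introns made up 65 of the 112 members of the acceptor class. They were 125 of 295 in the donor class and 404 of 3416 balanced members. Rps23 intron 1, of a protein of the small ribosomal subunit, had 4911 split control reads at the acceptor and 14 at the donor, and 261, 219, 282 and 169 unsplit 3′ reads against 10, 13, 5 and 7. Dnajb1 intron 1, of a heat shock cochaperone, had 1287 against 5 and 236, 206, 190 and 257 unsplit 3′ reads. In most split reads these acceptors were joined to a donor other than the listed one. The ratio of the rule was met in the summed knockdown libraries by 77.3% of balanced members, 81.7% of the donor class and 76.8% of the acceptor class.

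First introns were frequent among members in general. They made up 603 of 3838 (15.7%), against 8.84% of 5′ introns, 7.68% of other covered introns and 7.52% of all. Last introns made up 15.5%, 10.8%, 14.2% and 10.5%. Introns in the 5′ UTR made up 5.6%, 3.26%, 2.6% and 2.7%. The median length of members was 1119 nt, near that of all introns (1134 nt) and between other covered introns (963 nt) and 5′ introns (1420 nt). With unsplit sums of 30 to below 100 at the chosen junction, 14.5% of members and 8.36% of 5′ introns were first introns, where split reads were not matched (control medians of 413 and 209 over the whole sets). These shares are counts over introns that share genes and are given with no test.

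**Figure D3:**
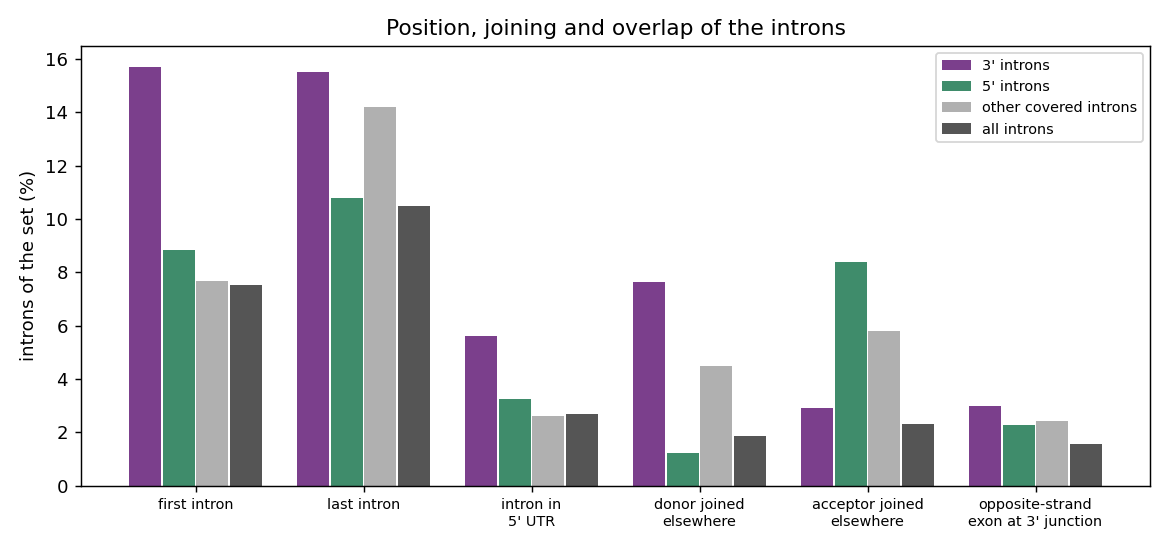
Percent of introns in each set that are the first or last of their transcript, lie in the 5′ UTR, have a donor or acceptor joined elsewhere, or have an opposite-strand exon over the 3′ junction. The bar of the 3′ introns reaches 15.7% for first introns, and donors joined elsewhere stand at 7.64% against 1.23% in the 5′ introns.

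A transcription start inside the intron would give unsplit reads at the acceptor only. RefSeq starts on the same strand lay inside 17 members (0.443%; 0.35% of 5′ introns and 0.197% of all). In 4 of them, Sall1, Dgka, Ppcdc and Oard1, each in intron 1, the start was within the last 500 nt. These genes were picked out after their values were seen. Sall1 codes for a zinc finger repressor of embryonic stem cells. Its intron 1 had 265, 203, 303 and 146 unsplit 3′ reads against 11, 11, 21 and 7, and the start lay 417 nt before the acceptor. All 218 control and all 122 knockdown long reads of Sall1 were counted on annotated transcripts that join the exons flanking this intron. Long reads were available only as counts per annotated transcript, so where a single read starts is not known. Use of the start inside the intron was not tested. Dgka intron 1, of a lipid kinase, had 35, 45, 49 and 45 against 3, 1, 2 and 6, and 138 of its 173 control long reads fell on transcripts that start inside or after the intron. Small nucleolar or spliceosomal RNA genes lay inside 7 members (0.182%; 0.131% of all). Annotated starts and small RNAs were thus present in few members.

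Long reads showed how far the annotated transcripts of the host genes use these junctions. In balanced members whose gene had 20 or more control long reads, a median of 95.4% of the reads fell on transcripts that join the same pair of exons, and 96.0% in the knockdown library. In the donor class the medians were 2.64% and 1.84%, and in the acceptor class 6.29% and 5.41%. Most reads of those 2 classes fell on transcripts that span the intron with other splice sites, on average 82.3% and 75.6% in the control. Transcripts that start inside or after the intron held on average 3.6% of the control reads in the balanced class, 5.39% in the donor class and 4.33% in the acceptor class. In 5′ introns of the balanced class the values were close, with a median of 95.2% and a mean of 3.87%. There is 1 long-read library per group, of 3080426 control and 1874851 knockdown reads, so these shares have no replicate check. The labels name the same starting sample for both, and the origin of the control library is unclear.

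**Figure D4:**
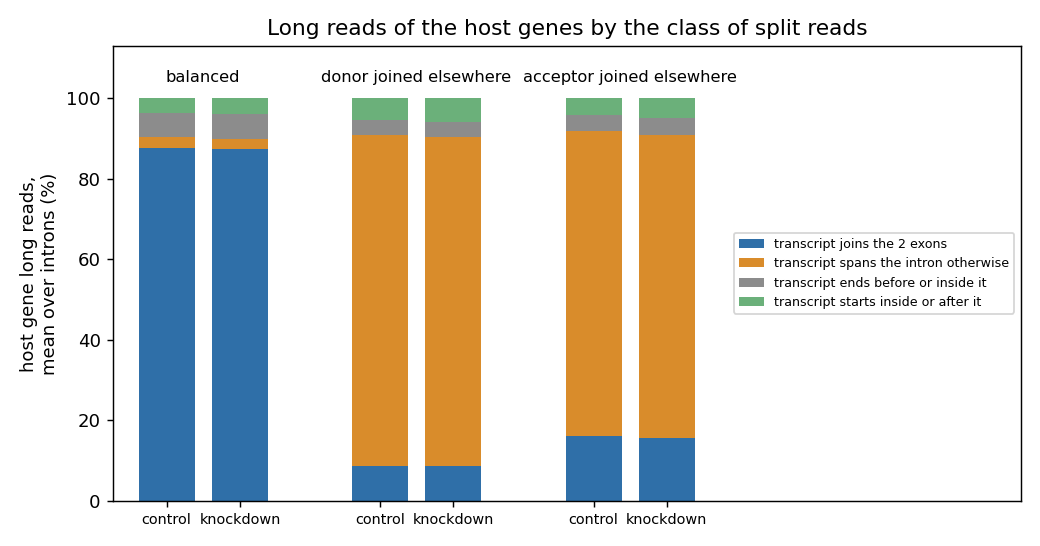
Mean share of the host gene's long reads, in percent, on transcripts that join the exons flanking the intron, span it otherwise, end before or inside it, or start inside or after it, by class of split reads and library. Blue reaches 87.7% and 87.4% in the balanced class against 16.2% and 8.7% in the control for acceptors and donors joined elsewhere.

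The comparison of knockdown with control asks how these introns fare when Son is reduced. Spliced reads at the 5′ junction, which the rule did not use, were tested for 3783 members (edgeR, adjusted p under 0.05): 23 rose and 107 fell. Over all 66468 introns tested 0.326% rose and 2.31% fell, and the shares in members were 0.608% and 2.83%. The median log2 change was 0.00 in members and 0.01 in all. The share falling was close to the background. Of the 107, 97 lie in genes whose summed spliced reads also fell. That sum includes the intron's own reads, so nothing about members is read from this count. DESeq2 called 8 members higher and 48 lower, against 41 and 601 of all introns. The numbers moved with single libraries, where a fit leaves 1 sample in a group. Without either knockdown library more members were called in both directions, and without either control library fewer. The same held over all introns.

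Among the falls, Araf intron 15 (chrX:20726059-20726217), of a RAF kinase, had 155 and 99 split reads in the controls, then 46 and 17 in the knockdown. This is 9.62 ± 0.319 and 2.37 ± 1.06 CPM (SD, n = 2 per group) and a log2 change of -1.98 ± 0.27 (SE, edgeR adjusted p = 1.65e-06). Its unsplit 3′ reads were 22, 15, 22 and 14. Cc2d1a intron 26 had 118 and 81 split reads in the controls, then 28 and 31 in the knockdown, a log2 change of -1.68 (edgeR adjusted p = 8.71e-05). Pigo intron 6, of an enzyme of GPI anchor synthesis, changed by -1.84 (edgeR adjusted p = 0.0044), and Cacnb3 intron 6, of a calcium channel subunit, by -1.70 (edgeR adjusted p = 0.0033). With DESeq2 Pigo and Cacnb3 were no longer called. Pigo also lost its call without control replicate 1 or 2, and Cacnb3 without control replicate 1 and at its acceptor, where its change was -0.69.

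In 2 of the falls only the donor side moved. Mest intron 2, of an imprinted gene, had 22 and 30 split reads at the donor in the controls, then 6 and 1 in the knockdown, a log2 change of -2.86 (edgeR adjusted p = 0.000803), while its acceptor had 404 and 281 in the controls, then 517 and 311 in the knockdown. At the acceptor the log2 change was 0.30. Intron 3 of ENSMUSG00000121500, a gene with no name in the annotation used, fell by 1.92 on the log2 scale at the donor (35, 21, 7 and 7 reads, edgeR adjusted p = 0.00904) and changed by 0.01 at the acceptor. Both belong to the acceptor class, so the spliced reads counted at the donor are a minor form. Neither intron had a DESeq2 value among the alternatives. The fall of Mest lost its call without control replicate 2, and that of ENSMUSG00000121500 without knockdown replicate 1 or control replicate 1.

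Among the rises, Fblim1 introns 5 and 7, of a filamin-binding adhesion protein, rose together, each by a log2 change of 0.87 (edgeR adjusted p = 5.54e-06 and 6.51e-06). Intron 7 went from 69.0 ± 1.54 to 127 ± 21.6 CPM (SD, n = 2 per group) with 1104, 716, 1647 and 1489 reads. Fblim1 as a whole rose by 0.84 ± 0.0801 (SE, edgeR adjusted p = 4.82e-07). Dzip1 intron 15, of a cilium protein, rose by 0.94 (edgeR adjusted p = 0.00123), Eya3 intron 7, of a developmental phosphatase, by 1.33 (edgeR adjusted p = 0.00644), Mmp15 intron 3, of a membrane metalloprotease, by 1.55 (edgeR adjusted p = 0.0291) and Zfp451 intron 4, of a SUMO ligase, by 0.85 (edgeR adjusted p = 0.034). The last 4 lost their call when either control library was left out, and Eya3 and Zfp451 also with DESeq2 or without knockdown replicate 2. Eya3 changed by 0.45 at its acceptor, where it was not called. Mmp15 intron 3 had no DESeq2 value among the alternatives.

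**Figure D5:**
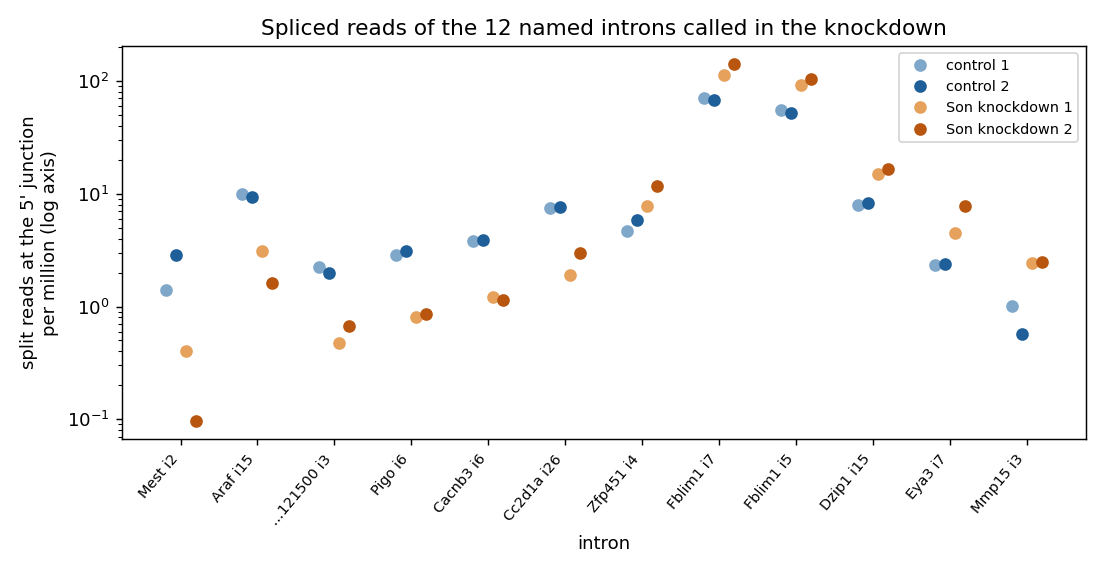
Split reads at the 5′ junction in CPM, on a log axis, in each library for the 6 members with the largest falls and the 6 with the largest rises. The introns were taken from called members whose groups do not overlap, so the separation of the points was part of the choice. Mest intron 2 has 1 read in knockdown replicate 2.

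Members together held 12.4% of the split reads in each of the 4 libraries, and the difference between the group means was 0.015 percentage points (exact two-sided permutation test, p = 1.0, n = 2 per group, where 0.33 is the smallest p possible). The balance of split reads between the 2 junctions was not called in any member (edgeR and DESeq2), and over all introns edgeR called 0.0%. At an unadjusted p under 0.05 the 3′ side gained in 27 members (0.705%) and lost in 22 (0.575%), against 0.277% and 0.269% of all introns. On simulated tables this test recovered 5.5% of 4-fold changes, so its lack of calls says little. The change of the 3′ to 5′ ratio of unsplit reads, which the rule used, was not called in any member in edgeR or DESeq2, and edgeR called 0.00157% of all introns higher and 0.0% lower. At an unadjusted p under 0.05 it was higher in 103 members (2.67%) and lower in 194 (5.02%), against 1.64% and 1.63% of all introns, and nothing is read from this, since the rule used the control values. For splicing efficiency, which uses the control unsplit reads of the rule, 67 of 3828 members were called lower and none higher in the knockdown, and the background was 1.71% and 0.0442% of 63309 introns. At an unadjusted p under 0.05 the counts were 267 (6.97%) and 58 (1.52%), against 8.11% and 1.61% of all introns. Nothing is read from these counts. DESeq2 called 17 members lower, the 5′ junction alone 12 and the 3′ junction alone 27, against 283, 231 and 319 of all introns. The number was higher without knockdown replicate 1 and lower without any other library, in members and over all introns.

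The members with the largest such difference lie in short introns. Sbf1 intron 26 (319 nt), of a myotubularin-related protein, had 34 and 30 unsplit 3′ reads in the controls, then 107 and 63 in the knockdown, and 7, 2, 27 and 15 at the 5′ junction, while its split reads at the donor were 265, 197, 121 and 77. Dcaf15 intron 5 (85 nt), of a ubiquitin ligase receptor, had 31, 18, 92 and 61 at the 3′ and 9, 6, 46 and 48 at the 5′ junction. These introns were chosen on their control unsplit reads and then for the size of this difference, so the values are a description. Nt5dc2 intron 5 (103 nt), Arsa intron 5 (235 nt) and Aars2 intron 8 (116 nt) completed the 5. Their unsplit reads at the 3′ junction ran from 8 to 24 in the controls and from 30 to 58 in the knockdown.

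Host genes were tested by their summed spliced reads, for 2499 genes. Of these 77 rose and 222 fell, 3.08% and 8.88%, against 1.96% and 6.76% of all 9474 genes tested with edgeR. With DESeq2 60 host genes rose and 199 fell, against 131 and 529 of all genes. More host genes were called in both directions without either knockdown library, and fewer without either control library. The same held over all genes. Besides Son, the largest falls were in Arsa, a lysosomal sulfatase (-1.63, edgeR adjusted p = 4.45e-06), Araf (-1.52, edgeR adjusted p = 3.53e-08), Idh2, a mitochondrial isocitrate dehydrogenase (-1.44, edgeR adjusted p = 1.73e-08) and Foxh1, a transcription factor of Nodal signalling (-1.44, edgeR adjusted p = 8.56e-07). Rises named by the same rule were in Fnbp4 (0.91, edgeR adjusted p = 3.15e-07), Fblim1, Rab12, a small GTPase (0.83, edgeR adjusted p = 0.00215) and Prr3 (0.67, edgeR adjusted p = 0.0137). In bulk RNA fewer transcripts per cell and fewer expressing cells cannot be told apart.

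Long reads of host transcripts moved about as those of all transcripts. Of 4347 host transcripts with 20 or more reads, 131 were 2-fold higher (3.01%) and 265 were 2-fold lower (6.1%) in the knockdown library, against 3.35% and 5.81% of all 13692. With a pseudocount of 5 reads, more host transcripts were higher (104) than lower (81). Kmt2b, a histone methyltransferase, went from 49 to 6 reads on one transcript, Ezh2, the Polycomb methyltransferase, from 99 to 14, and Hook2, a microtubule linker, from 71 to 10. In the other direction, one transcript each of Rtn4, Aplp2 and Sod2 went from 20 to 39, from 33 to 61 and from 22 to 38 reads. Son had 217 and 37 long reads.

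Genes of splicing itself were among the hosts. The lists were drawn up with earlier results of these data known. For the lists below, 2565 of the 9954 genes with a listed intron held a member. In the knockdown libraries 82.7% of all members were called for the 3′ side. Of all genes tested 6.76% fell and 1.96% rose in spliced reads. Of 26 genes of 3′ splice site recognition 23 had a listed intron. In these genes 13 held 23 members, and 20 of the members were called for the 3′ side in the knockdown libraries. U2af2, which binds the pyrimidine tract, held 3: its intron 7 had 73, 50, 78 and 45 unsplit 3′ reads against 5, 14, 7 and 10. Sf3b3, of the branch point complex, also held 3, and intron 15 had 147, 122, 140 and 94 against 6, 13, 18 and 5. Sf1, the branch point binding protein, held 3, with 36, 33, 33 and 21 against 2, 0, 0 and 0 in intron 3. Of the 23 genes of this list tested none rose and 4 fell in spliced reads, with a median log2 change of 0.00 against 0.01 over all genes. Among members Puf60 intron 10 alone was called, falling by 0.67 with its host, which fell by 0.75 (edgeR adjusted p = 0.00413 for the intron).

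Of 11 genes that act at the second splicing step 6 held 15 members, 9 of them in Prpf8, the protein at the catalytic core. Prpf8 intron 35 had 62, 50, 73 and 56 unsplit 3′ reads and 0 at the 5′ end. In Xab2 intron 7 the 3′ reads were 26 and 30 in the controls, then 85 and 84 in the knockdown, against 0, 0, 3 and 1 at the 5′ end, and split reads were 149, 90, 89 and 60. The control unsplit reads chose this intron, so no change of its unsplit reads between the groups is read from these counts. Xab2, a partner of the spliceosome, was 1 of 2 genes of this list that fell, by 0.50 on the log2 scale (edgeR adjusted p = 0.0004), and none of the 11 tested rose. Prpf8 itself changed by 0.08 and was not called.

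Of 16 SR and SR-related genes 9 held 14 members, 13 of them called for the 3′ side in the knockdown libraries. Srrm2 intron 9, of a speckle protein, had 315, 198, 254 and 213 unsplit 3′ reads against 8, 13, 12 and 11, Srsf2 intron 1 had 195, 124, 123 and 77 against 1, 1, 6 and 2, and Srsf7 intron 4 had 201, 158, 199 and 151 against 20, 14, 12 and 3. Son intron 3 (chr16:91457469-91458988) is a member as well. It had 29 and 36 unsplit 3′ reads in the controls, then 26 and 25 in the knockdown, against 11, 1, 8 and 3 at the 5′ end. Its split reads at the donor were 750, 581, 250 and 163, a log2 change of -1.66 (edgeR adjusted p = 1.05e-10). Of the 16 genes tested 1 rose, Srrm2 (0.30, edgeR adjusted p = 0.00743), and 2 fell, Son and Tra2a (-0.37, edgeR adjusted p = 0.00522).

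Of 17 pluripotency factors 15 had a listed intron and 12 held 17 members, of which 16 were called for the 3′ side. Klf5 intron 1 had 159, 107, 133 and 126 unsplit 3′ reads against 2, 2, 5 and 3, and Pou5f1 intron 2, of the factor OCT4, had 98, 68, 86 and 71 against 8, 10, 12 and 2. Nanog intron 1 had 71, 44, 54 and 41 against 15, 8, 8 and 17. No member of this list was called for spliced reads. Of the 15 genes tested Tfcp2l1 rose (0.23, edgeR adjusted p = 0.0354) and Fgf4 fell (-0.39, edgeR adjusted p = 0.0301), and the median change was -0.10. Of 30 hosts of intronic small RNAs only 16 had a listed intron, and 9 held 11 members, 10 of them called for the 3′ side. In this list 6 of 16 genes tested fell and none rose, and the median was -0.14, against 6.76% and 1.96% of all genes and a median of 0.01. Of 12 genes of other cells of the culture 6 had a listed intron. Only Lama1 held members, 2 in number, and none of the 6 tested was called.

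Without the 42 members listed under more than 1 gene, most hosts had a single member: 1742 of 2536 genes had 1, 514 had 2 and 280 had 3 or more. The most were in Hspg2, coding for the proteoglycan perlecan, with 15 of 94 listed introns, and Huwe1, a ubiquitin ligase, with 12 of 75. Prpf8 followed with 9 of 40. Members thus lay scattered over many genes and made up a minority of the introns of the genes that held most.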

How the data were processed

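The authors deposited, for each total RNA library, junction counts (split and unsplit, at the 5′ and the 3′ end) for every intron, with a score, a fraction they describe as splicing efficiency; the tables were made with SPLICE-q per the labels. Checked in all 1001224 entries, this deposited fraction equals split over all reads, and the lowest junction had 10 reads. For long reads the authors deposited counts per transcript. The submitters' processing notes name GRCm39, minimap2 and SAMtools; strand settings are not given in the sources used here. Introns were reduced to 1 entry per position and those listed in all 4 libraries kept (73180 to 79975 listed per library). The members and gene lists were chosen with earlier results of these data known.

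Intron coordinates are those of the files. Features came from GENCODE M21 (GRCm38) by transcript, intron number and equal length (67885 of 68093 introns; 3838 members), and sequences from its transcripts or RefSeq promoter windows of GRCm38.p6. An exon covered a junction if it held the last 10 intron bases there.

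Tests used edgeR 4.0.16 (quasi-likelihood, R 4.3.3) over all introns or genes, Benjamini-Hochberg adjusted, threshold 0.05. Spliced reads were tested with TMM scaling and filterByExpr. Tests of 2 columns per library used library terms, equal scaling and at least 10 reads (10 split and 10 unsplit for efficiency). The 3 tests between junctions used the robust prior estimate: on simulated data the default recovered none of the changes in unsplit reads, and the calls of the default on the real tables had been seen by then. The simulated data held 200 introns changed 4-fold. Of these, 97.5% were recovered for unsplit 3′ against 5′ reads and 100% for spliced reads, where 6.54% of calls were false. For unsplit reads the changed introns were 200 of 55412 simulated introns. In the real data, by contrast, 13.2% of 56349 introns were called for the 3′ side and 12.2% for the 5′ side. The simulation therefore does not decide which prior estimate suits the real data. DESeq2 1.42.0, other filters, single junctions, a replicate block and leaving out each library served as alternatives. Long-read ratios are on the log2 scale of CPM with a pseudocount of 0.5 reads, for transcripts with 20 or more reads, with no test. CPM values are scaled by the library's 5′ split reads; shares of split reads used scipy 1.17.1.

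Introns named are the 10 with the highest control 3′ sums, those nearest the thresholds, the 6 strongest rises and 6 strongest falls of spliced reads, the 6 largest knockdown ratios, the 5 largest changes in efficiency and members of the lists; host genes named are the 5 largest changes each way (1 of them is not reported here), transcripts the 3 largest with 50 or more reads. The rises and falls of spliced reads were taken from called members whose groups did not overlap. Others, named as examples of a kind, are the members with the most reads in it and were chosen after their values were seen.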

Additional observations from a re-analysis of the deposited data

How the results depend on the processing

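Of 112 alternatives to the main counts and shares 75 stayed within 1.5 times or within the spread. Members called for spliced reads were 8 higher and 48 lower with DESeq2, and 3 to 274 higher and 32 to 320 lower when a library was left out. Host genes were 11 to 422 higher and 123 to 446 lower when a library was left out. The count of 3193 for unsplit reads fell to 406 with the non-robust prior. Lower splicing efficiency was called in 27 members at the 3′ junction only, 12 at the 5′ junction only, 17 with DESeq2 and 6 to 89 without a library; higher efficiency in 4 with separate scaling and 0 to 3 without a library. The share of members meeting the ratio was 72.5% to 74.5% with 1 knockdown library. The difference in the share of split reads ran from -0.0242 to 0.0543 percentage points, and was -0.0242 without knockdown replicate 2. Host transcripts 2-fold lower numbered 81, and higher 104, with a pseudocount of 5, which turns the balance of 265 and 131; with 50 or more reads they numbered 97 and 22. A 3′ sum of 100 would choose 701 introns and a ratio of 5 would choose 2242. The cause of these shifts was not tested. Of 93 values for the 12 introns named for spliced reads, 69 kept their call, 22 lost it and 2 changed sign, both at the 3′ junction: Mest intron 2 to 0.30 and ENSMUSG00000121500 intron 3 to 0.01.

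The labels number the replicates alike in both groups but give no shared batch or culture, and deviations of same-numbered samples had a correlation of -0.0 over 66468 introns. With the replicate number as a block, 103 members were called for lower and 3 for higher efficiency, against 1580 and 46 of all introns. For spliced reads 25 members were called higher and 117 lower, against 246 and 1741 of all introns. Members near a 3′ sum of 30 have few reads at each junction, which limits their ratios.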
